A study of Homo sapiens with 60 samples.

Results

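Molecular chaperones of the cytosol and of the endoplasmic reticulum (ER) were followed in HT29 cells, an established line from a human colorectal adenocarcinoma, under a vehicle and under herbal water extracts. The 40 genes were taken by symbol, after symbols had been assigned to the Ensembl identifiers of the 60675 genes measured. All 40 were found, and all 40 passed the filter on low counts, the lowest count in any library being 120, for SDF2L1. They fall into 20 heat shock genes, which include the mitochondrial pair HSPD1 and HSPE1 and the transcription factor HSF1, and 20 ER genes. Messenger RNA was sequenced after 24 h of treatment. The single-plant extracts were Paeoniae Radix, Cinnamomi Cortex, Cnidii Rhizoma, Astragali Radix and Rehmanniae Radix Preparata, and the formulae, each made of several plants, were Sagunja-tang and Samul-tang. Each extract was labelled with nominal doses of 500, 100 and 20 µg/mL. According to the labels, extracts that were inhibitory below 500 µg/mL were used at that lower concentration and at dilutions of it, and no label says which extracts these were. Each dose had 3 libraries, except for Paeoniae Radix with 1 library per dose, which therefore entered no test. The vehicle group had 3 libraries, with 0.1% dimethyl sulfoxide in the sample labels and 2% in the design text. All cells were HT29 cultures with no genetic modification in the labels, and no label says that replicates came from different cultures. The p-values therefore reflect library-to-library spread, which may be technical.

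The heat shock response is the cell's reaction to unfolded protein in the cytosol. HSF1, kept inactive by chaperones, is released when these are occupied, binds heat shock elements in DNA and raises transcription of HSP70, HSP90 and their helpers. The unfolded protein response is the matching reaction of the ER, in which the sensors IRE1, PERK and ATF6 act through XBP1, ATF4 and cleaved ATF6. Of these, cleaved ATF6 and XBP1 raise the ER chaperones through ER stress elements. HT29 cells are of colonic epithelial origin, a secretory epithelium in which the ER folds mucins, receptors and other exported proteins.

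Promoters of some members hold response elements that were found in members of a single list, and examples are shown for that reason. RefSeq windows from 250 bases before to 50 bases after the transcription start (GRCh38.p14) matched 37 of the 40 members, 18 heat shock and 19 ER genes; those of FKBP4, HSF1 and PDIA3 were not matched. A heat shock element of 3 alternating units, GAANNTTCNNGAA, searched on both strands, was found in 6 of the 18 heat shock genes (CHORDC1, DNAJA1, HSP90AA1, HSP90AB1, HSPA8 and HSPD1) and in 0 of the 19 ER genes. Among all 27305 genes with a window, 0.608% held it. HSPA8 and HSP90AB1, the constitutive HSP70 and HSP90 of the cytosol, hold it in the 250 bases upstream of the start, given here 5′ to 3′ on the gene's strand with each match on either strand in capitals. RefSeq lists further starts for HSP90AB1, PDIA6 and XBP1, whose windows held none of the elements searched and are not shown. A match describes the letters of the window and is not a measured binding site. Only exact matches inside these windows were searched, so a gene without a match is not shown to lack the element.
HSPA8 (chr11:123062137-123062386, minus strand): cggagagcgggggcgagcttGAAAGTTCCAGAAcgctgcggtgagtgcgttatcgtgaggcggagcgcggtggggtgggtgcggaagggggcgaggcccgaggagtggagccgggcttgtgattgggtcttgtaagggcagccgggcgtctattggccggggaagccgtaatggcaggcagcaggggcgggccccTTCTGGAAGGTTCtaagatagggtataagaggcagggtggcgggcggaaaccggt
HSP90AB1 (chr6:44247693-44247942, plus strand): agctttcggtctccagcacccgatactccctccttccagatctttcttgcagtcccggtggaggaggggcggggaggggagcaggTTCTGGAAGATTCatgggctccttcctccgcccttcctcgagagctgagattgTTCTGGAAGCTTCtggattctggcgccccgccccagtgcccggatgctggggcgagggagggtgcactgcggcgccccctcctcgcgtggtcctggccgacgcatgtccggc

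The ER stress element, the motif named by its letters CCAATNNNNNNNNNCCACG, was found in 7 of the 19 ER genes (CALR, CANX, CRELD2, HSP90B1, HSPA5, PDIA6 and XBP1), in 0 of the 18 heat shock genes and in 0.0916% of all genes with a window. ER stress element II, the letters ATTGG, any 1 base and CCACG, was found in 3 further ER genes (HERPUD1, HYOU1 and SDF2L1), in 0 heat shock genes and in 0.0696% of all genes. The unfolded protein response element TGACGTGG was found in HYOU1 alone among the members, where it overlaps an ER stress element II, and in 0.927% of all genes. In the ER members below, the capitals mark these elements on either strand. HSPA5, PDIA6, XBP1, HYOU1 and HERPUD1 rose with the Cinnamomi Cortex dose, while CRELD2 and SDF2L1 did not pass that test. CRELD2 and SDF2L1 were called with the formulae against vehicle, where treatment and library set, described below, cannot be told apart. With library set as a term they were not called.
HSPA5 (chr9:125241344-125241593, minus strand): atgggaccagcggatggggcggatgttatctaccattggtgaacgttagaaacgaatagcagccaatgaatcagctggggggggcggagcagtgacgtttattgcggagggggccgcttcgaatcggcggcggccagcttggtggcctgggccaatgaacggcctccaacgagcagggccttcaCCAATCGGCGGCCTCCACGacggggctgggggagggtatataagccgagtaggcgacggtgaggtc
PDIA6 (chr2:10812786-10813035, minus strand): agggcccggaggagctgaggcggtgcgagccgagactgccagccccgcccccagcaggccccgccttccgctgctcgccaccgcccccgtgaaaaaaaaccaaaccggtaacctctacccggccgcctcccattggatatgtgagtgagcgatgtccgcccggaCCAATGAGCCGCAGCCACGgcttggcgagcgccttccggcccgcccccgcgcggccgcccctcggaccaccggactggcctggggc
XBP1 (chr22:28800570-28800819, minus strand): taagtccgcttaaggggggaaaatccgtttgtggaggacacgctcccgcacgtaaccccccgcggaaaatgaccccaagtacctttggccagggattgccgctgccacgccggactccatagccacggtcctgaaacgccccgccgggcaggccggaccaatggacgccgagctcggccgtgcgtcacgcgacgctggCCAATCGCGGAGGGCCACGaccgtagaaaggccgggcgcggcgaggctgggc
CRELD2 (chr22:49918384-49918633, plus strand): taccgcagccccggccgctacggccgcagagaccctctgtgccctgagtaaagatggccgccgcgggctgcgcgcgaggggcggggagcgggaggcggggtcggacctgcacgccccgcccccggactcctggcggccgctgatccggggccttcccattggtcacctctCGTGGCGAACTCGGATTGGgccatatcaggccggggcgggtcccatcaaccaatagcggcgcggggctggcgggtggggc
HYOU1 (chr11:119057206-119057455, minus strand): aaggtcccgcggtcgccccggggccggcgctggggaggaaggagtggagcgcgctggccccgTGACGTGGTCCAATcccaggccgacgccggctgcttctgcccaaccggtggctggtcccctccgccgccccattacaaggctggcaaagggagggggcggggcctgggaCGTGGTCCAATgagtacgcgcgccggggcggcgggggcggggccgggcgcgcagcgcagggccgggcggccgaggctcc
HERPUD1 (chr16:56931892-56932141, plus strand): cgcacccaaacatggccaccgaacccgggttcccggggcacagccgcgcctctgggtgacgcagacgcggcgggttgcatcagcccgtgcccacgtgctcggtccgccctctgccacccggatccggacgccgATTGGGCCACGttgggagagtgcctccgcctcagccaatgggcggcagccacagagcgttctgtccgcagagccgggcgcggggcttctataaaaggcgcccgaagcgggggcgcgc
SDF2L1 (chr22:21642052-21642301, plus strand): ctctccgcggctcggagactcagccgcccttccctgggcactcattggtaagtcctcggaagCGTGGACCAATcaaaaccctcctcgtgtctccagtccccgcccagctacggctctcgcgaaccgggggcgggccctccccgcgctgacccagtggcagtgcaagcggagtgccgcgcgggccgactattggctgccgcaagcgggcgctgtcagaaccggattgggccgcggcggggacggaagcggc

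Library totals ran from 20459346 to 36253747 estimated counts. Levels are given as CPM, counts scaled to a common library size by the trimmed mean of M-values, and differences as log2 differences from edgeR's quasi-likelihood test with Benjamini-Hochberg adjustment over the 16356 genes tested, called at an adjusted p under 0.05. The epithelial markers KRT8 (5638 to 7372 CPM), EPCAM (493 to 585 CPM) and CDH1 (407 to 528 CPM) were high in every library. KRT18 was at 3280 to 4089 CPM, KRT20 at 248.5 to 423 CPM and VIL1 at 154.6 to 190.6 CPM. CDX2 (3.42 to 6.2 CPM) and CEACAM5 (5.36 to 13.3 CPM) were low. Markers of leukocytes (PTPRC, CD3E), fibroblasts (COL1A2, DCN), endothelium (CDH5) and hepatocytes (ALB, APOC3) had a median of 0. Medians of CD79A, TAT, CYP3A4, VWF and PDGFRB were 0.0327 to 0.141 CPM. Other markers of these lists were detected in every library. COL1A1 was at 0.733 to 1.94 CPM, LUM at 0.439 to 1.23 CPM and CD14 at 2.38 to 4.27 CPM. ITGAM was at 1.07 to 2.29 CPM and PECAM1 at 1.17 to 2.43 CPM. The first component of expression (15.7% of the variance) separated the libraries by sample code, with the vehicle and the codes beginning with 5 and 6-1 (library set 1) apart from those beginning with 6-2, 6-3 and 7 (library set 2). One library, Cinnamomi Cortex 500 µg/mL replicate 2, carries a set 2 code and lay among set 1 on that component. In these bulk libraries, fewer cells of a type and less RNA per cell cannot be told apart.

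Under vehicle, the chaperones spanned a wide range of levels, set here per kilobase of exon. The divisor was the combined length of all annotated exons, 2980 bases for HSP90AB1 and 4849 for HSPA8, so the order of genes depends on it. Undivided by length, HSPA8 was above HSP90AB1, at 2652, 2689 and 2705 CPM against 1862, 1808 and 1735 CPM. By this measure HSP90AB1, the constitutive cytosolic HSP90, was highest with 625, 607 and 582 CPM per kilobase in its 3 libraries (605 ± 21.4, SD, n = 3). HSPA8, the constitutive HSP70, followed with 547, 554 and 558 (553 ± 5.60). These levels did not overlap. Below them CALR, a lectin chaperone (222 ± 2.95 CPM per kilobase), HSPD1, the mitochondrial chaperonin (221 ± 15.8), and HSP90AA1, the inducible cytosolic HSP90 (207 ± 5.19), followed each other, and the libraries of HSPD1 overlapped those of both its neighbours. The inducible HSP70 genes HSPA1A (108 ± 4.16 CPM per kilobase) and HSPA1B (98.0 ± 5.68) lay beside HSPA5, the ER HSP70 known as BiP (105 ± 2.62). The lowest levels per kilobase were those of DNAJB9 (4.19 ± 0.104), DNAJB4 (3.69 ± 0.124) and CRELD2 (2.87 ± 0.350).

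**Figure D1:**
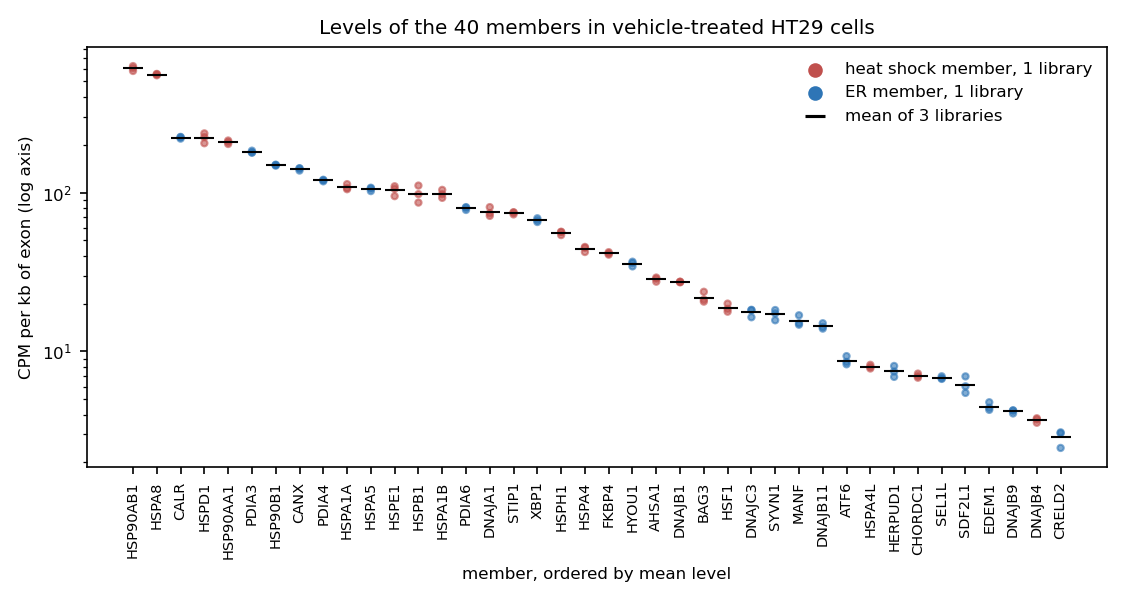
Level of each of the 40 members in the 3 vehicle libraries, in CPM per kilobase of exon on a log axis, with the members in order of their mean and coloured by list; points are libraries and bars are means. HSP90AB1 and HSPA8 stand above all others at 605 and 553 CPM per kilobase, and members of both lists are mixed through the rest of the range.

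Between 20 and 500 µg/mL of Cinnamomi Cortex, cinnamon bark, 22 of the 40 members rose and 0 fell. Of all genes tested, 4.51% rose and 10.1% changed in either direction. The risers were 10 heat shock genes and 12 ER genes, with median log2 differences of 0.18 over the heat shock list and 0.15 over the ER list, beside a median over all genes of -0.00015. All 20 heat shock genes and 19 of the 20 ER genes had a difference above 0, the exception being CRELD2 at -0.03, whereas 49.9% of all genes did. The changes were small, from 0.11 to 0.37 among the called members on the log2 scale. In 26 members, 13 of each list, the 3 libraries at 500 µg/mL all lay above the 3 at 20 µg/mL, against 10.8% of all genes.

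Among the HSP70 genes, the inducible HSPA1A (GRCh38 chr6:31815464-31817946) was at 264, 273 and 288 CPM at 20 µg/mL and at 357, 334 and 376 CPM at 500 µg/mL of Cinnamomi Cortex. Vehicle libraries held 261, 265 and 280 CPM, so that the 500 µg/mL libraries lay above all of the others with no overlap. The log2 difference between 500 and 20 µg/mL was 0.37 (SE 0.06, edgeR adjusted p = 3.1e-05). HSPA1B, its neighbour (chr6:31827735-31830255), had a difference of 0.28 (SE 0.08, edgeR adjusted p = 0.027). Of their 100-base exon windows, 67.3% of those of HSPA1A occur in HSPA1B, so the split of reads between them is uncertain, and their summed level is the safer value. The sum was 550 ± 18.2 CPM at 20 µg/mL, 586 ± 18.7 CPM at 100 µg/mL and 689 ± 44.7 CPM at 500 µg/mL of Cinnamomi Cortex, beside 516 ± 5.97 CPM under vehicle (SD, n = 3 each). HSPA8 was at 2620, 2434 and 2435 CPM at 20 µg/mL and at 3141, 3095 and 2774 CPM at 500 µg/mL, again without overlap, with a log2 difference of 0.27 (SE 0.06, edgeR adjusted p = 0.0012). HSPH1, an HSP70-related nucleotide exchange factor, rose by 0.23, while HSPA4 and HSPA4L of the same family did not pass the test (0.06 and 0.01).

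Among the HSP90 genes, 3 cochaperones and the constitutive HSP90AB1 rose. FKBP4, the immunophilin FKBP52 of steroid receptor complexes (chr12:2794953-2805423), was at 209, 220 and 216 CPM at 20 µg/mL and at 238, 246 and 282 CPM at 500 µg/mL. The groups did not overlap, and the log2 difference was 0.25 (SE 0.04, edgeR adjusted p = 6.7e-05). AHSA1, an activator of the HSP90 ATPase, rose by 0.24 (edgeR adjusted p = 5.2e-05), and STIP1, which bridges HSP70 and HSP90, by 0.18 (edgeR adjusted p = 0.0019). HSP90AB1 itself rose by 0.11 (edgeR adjusted p = 0.045), and HSP90AA1, also at 0.11, did not pass (edgeR adjusted p = 0.071). DNAJB1, a J-protein that hands substrates to HSP70, rose by 0.18, and BAG3, an HSP70 partner in selective autophagy, by 0.27 with an edgeR adjusted p of 0.0497. Neither mitochondrial gene passed, HSPE1 standing at 0.30 (SE 0.10, edgeR adjusted p = 0.056) and HSPD1 at 0.08, and the small heat shock protein HSPB1 (0.09) and HSF1 (0.08) did not pass either. The J-proteins DNAJA1 (0.10) and DNAJB4 (0.18) and the HSP90 partner CHORDC1 (0.15) also did not pass.

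In the ER, the HSP70, its exchange factor, both lectin chaperones and 3 disulfide isomerases rose. HSPA5 was at 411, 388 and 396 CPM at 20 µg/mL and at 481, 448 and 484 CPM at 500 µg/mL of Cinnamomi Cortex. The groups did not overlap, and the vehicle libraries, at 419, 414 and 399 CPM, also lay below all 3 libraries at 500 µg/mL. The log2 difference between the doses was 0.24 (SE 0.05, edgeR adjusted p = 0.00022). HYOU1, its exchange factor, rose by 0.14, and the ER HSP90, HSP90B1, did not pass (0.07). The lectin chaperones CALR (0.15) and CANX (0.16) rose, as did the disulfide isomerases PDIA3 (0.14), PDIA4 (0.15) and PDIA6 (0.15).

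The largest differences of the ER list were those of DNAJB9 and MANF, both of low abundance. DNAJB9, an ER J-protein that restrains the sensor IRE1 (chr7:108569568-108574850), was at 10.4, 11.1 and 11.8 CPM at 20 µg/mL and at 13.5, 13.8 and 14.6 CPM at 500 µg/mL, with no overlap and a log2 difference of 0.33 (SE 0.09, edgeR adjusted p = 0.0083). MANF, a secreted ER stress factor (chr3:51385047-51389397), was at 35.2, 34.5 and 36 CPM at 20 µg/mL and at 43.2, 45.2 and 44.0 CPM at 500 µg/mL. Its groups did not overlap either, and the log2 difference was 0.33 (SE 0.07, edgeR adjusted p = 0.00058). DNAJB11, a J-protein partner of HSPA5, and HERPUD1, part of the degradation complex of the ER, each rose by 0.19, and XBP1, a transcription factor of the unfolded protein response, by 0.16. The degradation genes SEL1L, SYVN1 and EDEM1, the sensor ATF6, the eIF2α kinase inhibitor DNAJC3, and SDF2L1 and CRELD2 did not pass, with differences from -0.03 to 0.11.

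**Figure D2:**
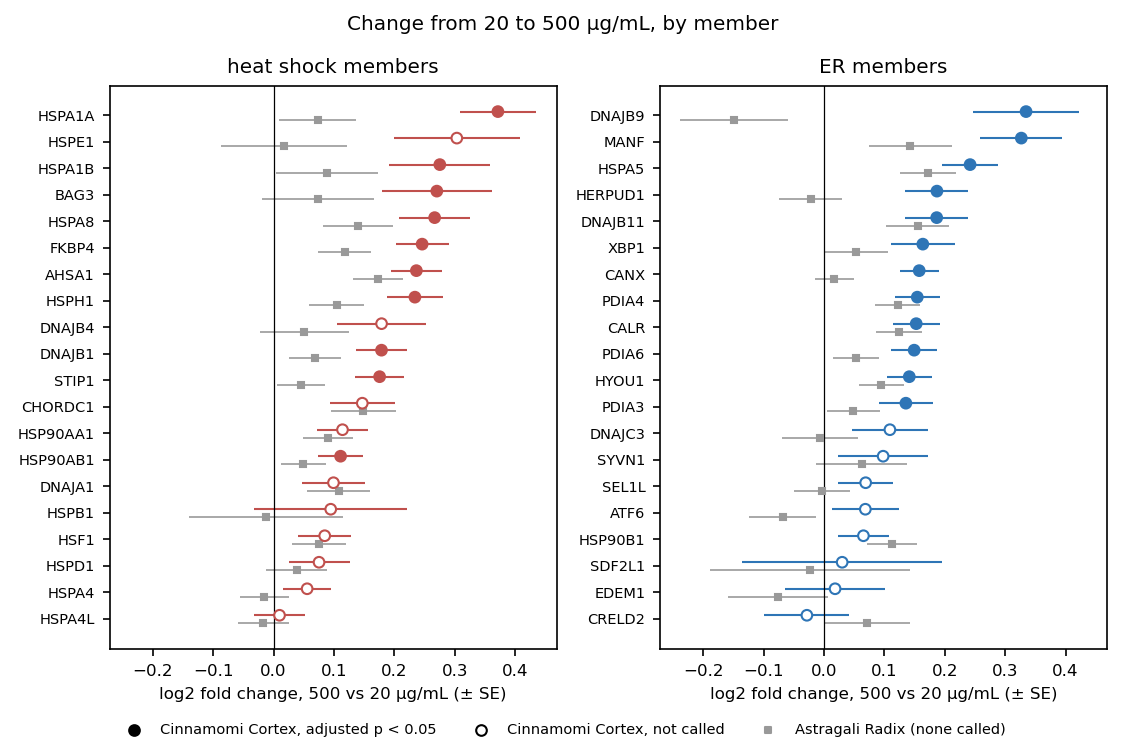
Log2 difference between 500 and 20 µg/mL (± SE) for each of the 40 members, heat shock on the left and ER on the right; circles are Cinnamomi Cortex, filled where called, and grey squares are Astragali Radix. The 22 filled circles, called by edgeR, all lie above 0, led by HSPA1A at 0.37, and edgeR called 0 members with Astragali Radix.

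**Figure D3:**
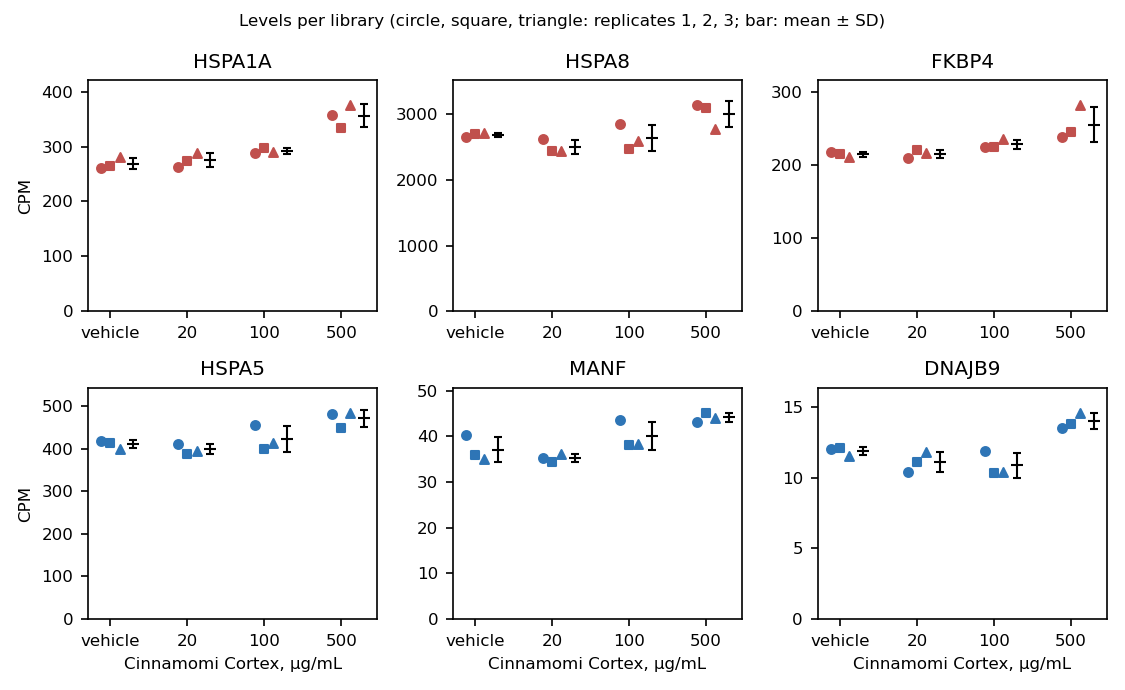
CPM in each library of vehicle and of Cinnamomi Cortex at 20, 100 and 500 µg/mL for HSPA1A, HSPA8 and FKBP4 (heat shock) and HSPA5, MANF and DNAJB9 (ER); symbols are libraries by replicate number and bars are means ± SD. For HSPA1A the 500 µg/mL libraries lie at 334 to 376 CPM and all others at 261 to 298 CPM.

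The elements in the promoter windows were then set beside these calls. A heat shock element was found in 2 of the 9 matched heat shock genes that rose with the Cinnamomi Cortex dose and in 4 of the 9 that did not pass. An ER stress element of either kind was found in 7 of the 11 matched ER genes that rose and in 3 of the 8 that did not pass. These counts describe small lists and exact matches only, and were not tested.

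The intermediate dose placed most members between the other doses. Group means increased from 20 to 100 to 500 µg/mL in 30 of the 40 members, 18 heat shock and 12 ER genes, against 21% of all genes, and fell along that order in 0. This order requires a mean at 500 µg/mL above that at 20 µg/mL, so the count depends in part on the differences given above. Same-numbered Cinnamomi Cortex libraries share the start of their code. The mean log2 difference between 500 and 20 µg/mL within each code was 0.18, 0.16 and 0.19 over the heat shock list and 0.13, 0.13 and 0.15 over the ER list; the first of each is within library set 1 and the others carry set 2 codes. With library set as a term, 25 members were called, among them all 22, with the share of all genes in that fit not given here. Leaving out 1 library of the comparison at a time left 14 to 21 called, the lowest without replicate 3 at 20 µg/mL, and 17 without replicate 2 at 500 µg/mL, which has a set 2 code and lay among set 1.

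Against vehicle, 16 of the 40 members rose and 0 fell at 500 µg/mL of Cinnamomi Cortex, where 6.09% of all genes rose and 12.7% changed. This comparison shares its 500 µg/mL libraries with the one between doses. The 9 heat shock genes were HSPA1A (0.40), HSPA1B (0.43), HSPH1 (0.16), HSP90AB1 (0.13), DNAJB1 (0.22), FKBP4 (0.25), STIP1 (0.14), AHSA1 (0.21) and HSF1 (0.16). The 7 ER genes were HSPA5 (0.20), HYOU1 (0.16), CALR (0.12), CANX (0.12), PDIA4 (0.14), PDIA6 (0.12) and MANF (0.25). Median log2 differences were 0.14 and 0.12 over the lists, beside 0.0031 over all genes. HSPA8, which rose between the doses, was at 2652, 2689 and 2705 CPM under vehicle and did not pass here (0.16, edgeR adjusted p = 0.055). BAG3, PDIA3, DNAJB9, DNAJB11, HERPUD1 and XBP1 also rose between the doses and did not pass here. HERPUD1 was at 41.7, 38.5 and 35.6 CPM under vehicle and at 41.6, 42.6 and 42.1 CPM at 500 µg/mL, overlapping groups. DNAJB9 was at 12, 12.1 and 11.5 CPM under vehicle, below its 500 µg/mL libraries. With library set as a term 20 members were called, 15 of them among these 16 and HSF1 not, again without the share of all genes. Leaving out vehicle replicate 3 left 11.

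At the lower doses few members differed from vehicle. CRELD2, an ER resident disulfide isomerase-like protein, was the only member that edgeR called at 100 µg/mL (7.84% of all genes), where DESeq2 called CRELD2, HSPA1B and ATF6. CRELD2 was at 16.9, 19 and 17.1 CPM against 16.0, 15.8 and 12.8 CPM under vehicle. The groups did not overlap, the log2 difference was 0.25 (edgeR adjusted p = 0.026), and the call was lost with library set as a term or without vehicle replicate 3. At 20 µg/mL edgeR and DESeq2 called 0 members (1.69% of all genes by edgeR). At an unadjusted p under 0.05 there were 2 members and 2893 of the 16356 genes tested. Averaged over the heat shock list, the log2 difference from vehicle was 0.142 ± 0.0277 with 500, 0.0272 with 100 and -0.0333 with 20 µg/mL, and over the ER list 0.118 ± 0.011, 0.0138 and -0.0197 (SD over 3 libraries). The heat shock mean exceeded the ER mean by 0.0246 ± 0.0253 at 500 µg/mL, a gap smaller than its spread over the libraries. In the other extracts with 3 libraries at 500 µg/mL this gap ran from -0.012 ± 0.0318 with Samul-tang to 0.032 ± 0.015 with Rehmanniae Radix Preparata.

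Libraries of Cinnamomi Cortex and Astragali Radix share the codes beginning with 6, and so could be compared directly at 500 µg/mL. Their codes fall evenly into the library sets. By expression they do not, since Cinnamomi Cortex replicate 2 lay at -15.99 on the first component and Astragali Radix replicate 2 at 7.98. Of the 40 members, 9 were higher with Cinnamomi Cortex and 0 lower, where 4.9% of all genes were higher and 10.7% differed. The 5 heat shock genes were HSPA1A (0.37), HSPA1B (0.27), BAG3 (0.27), FKBP4 (0.15) and STIP1 (0.19), and the 4 ER genes HYOU1 (0.12), CANX (0.14), DNAJB9 (0.29) and MANF (0.22). HSPA1A was at 281, 277 and 266 CPM with Astragali Radix, below all 3 Cinnamomi Cortex libraries. CANX was at 883, 858 and 847 CPM with Astragali Radix and at 959, 954 and 949 CPM with Cinnamomi Cortex, again without overlap. BAG3, which was lower in set 2 by the set term (-0.23), was among the 9. Without Cinnamomi Cortex replicate 2, 7 members were called and BAG3, at 0.28, was not. Without Astragali Radix 500 µg/mL replicate 3, 3 members were called, and DESeq2 called 14, with no share of all genes given for either.

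The difference between the dose responses of these extracts was itself tested as an interaction. By edgeR DNAJB9 alone among the members passed, where 2.55% of all genes did, with a log2 value of 0.48 (SE 0.13, edgeR adjusted p = 0.019), while DESeq2 called DNAJB9, HSPA1A and CANX. Its Astragali Radix levels were 10.7, 12.6 and 15.0 CPM at 20 µg/mL and 12, 12 and 10.3 CPM at 500 µg/mL, overlapping groups with a wide spread at the low dose. The call was lost when Astragali Radix 20 µg/mL replicate 3, the highest of these, was left out (0.35), and also without any 1 of 3 other libraries. For the other 39 members, the edgeR calls, which number 22 over all members with Cinnamomi Cortex and 0 with Astragali Radix, do not by themselves show a difference between the extracts. In the interactions of Cnidii Rhizoma with Rehmanniae Radix Preparata (0.0122% of all genes) and of Sagunja-tang with Samul-tang (0%), edgeR and DESeq2 called 0 members. At an unadjusted p under 0.05 there were 1 and 2 members, beside 526 and 422 of the 16356 genes tested.

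With the other 5 extracts, edgeR called 0 members between 500 and 20 µg/mL. Few genes of any kind were called there, 0.397% of all genes for Cnidii Rhizoma, 0.171% for Rehmanniae Radix Preparata, 0.0795% for Astragali Radix, 0.00611% for Sagunja-tang and 0.141% for Samul-tang. At an unadjusted p under 0.05 there were 7, 10, 14, 12 and 4 of the 40 members in that order. Of the 16356 genes tested, 1200, 1290, 897, 1564 and 1031 were under it. DESeq2 called HSP90AA1 with Rehmanniae Radix Preparata and AHSA1 with Astragali Radix. Members above 0 numbered 34, 30, 30, 32 and 30 of 40, beside 49.1%, 49.2%, 50.1%, 50.5% and 50.6% of all genes. Median log2 differences over the heat shock list were 0.06, 0.06, 0.07, 0.05 and 0.04, and over the ER list 0.08, 0.03, 0.05, 0.08 and 0.05. Not called by edgeR, HSPA5 stood at 0.16 with Cnidii Rhizoma and AHSA1 at 0.17 with Astragali Radix (edgeR adjusted p = 0.127). Between same-numbered libraries, which were not taken as pairs, the mean difference was above 0 in both lists for all 6 extracts. The smallest were 0.0119 over the heat shock list (Samul-tang replicate 1) and 0.0077 over the ER list (Astragali Radix replicate 3). The SD over the vehicle libraries was 0.00563 and 0.0337 for these lists. The same means over all genes are not given here. Members whose group means increased with each dose numbered 17 for Cnidii Rhizoma (20.6% of all genes), 19 for Rehmanniae Radix Preparata (21.2%), 20 for Astragali Radix (18.1%), 19 for Sagunja-tang (23.1%) and 11 for Samul-tang (18.4%). Such an order requires a mean at 500 µg/mL above that at 20 µg/mL. These counts therefore restate in part the members above 0 and are no separate support for a dose trend.

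**Figure D4:**
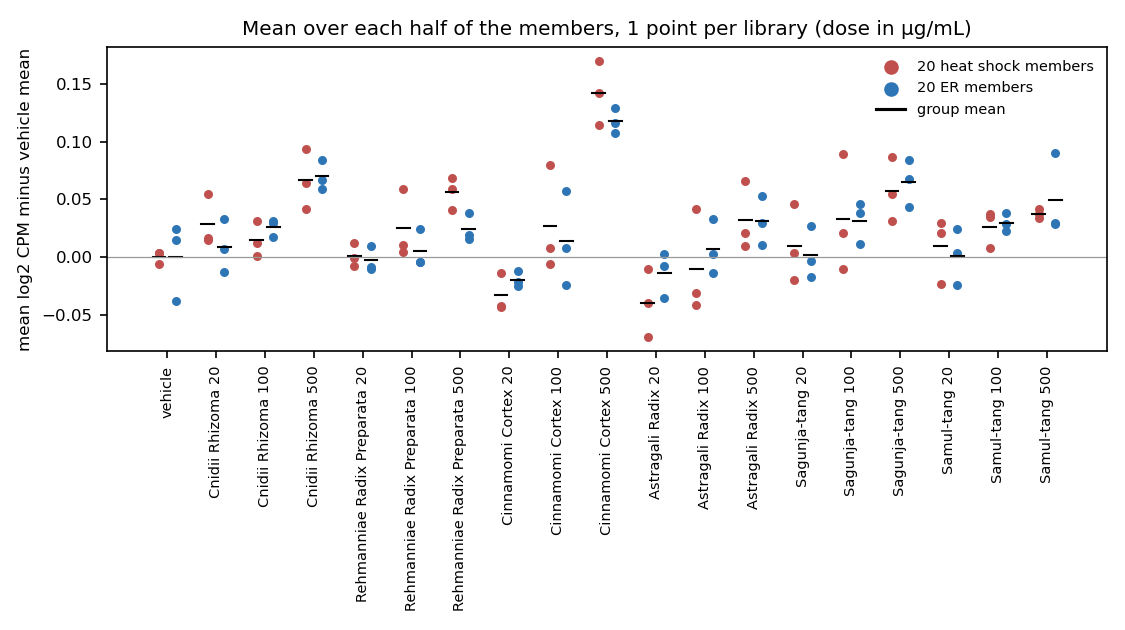
Mean log2 difference from the vehicle mean over the 20 heat shock and over the 20 ER members, by extract and dose in µg/mL for the groups with 3 libraries; points are libraries and bars are group means. Cinnamomi Cortex at 500 µg/mL stands highest for both lists, with means of 0.142 and 0.118.

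Against vehicle at 500 µg/mL, edgeR called 0 members with Cnidii Rhizoma (1.38% of all genes), Rehmanniae Radix Preparata (0.593%) and Astragali Radix (3.61%). At an unadjusted p under 0.05 there were 14, 3 and 8 members, beside 1897, 1456 and 3198 of the 16356 genes tested. DESeq2 called DNAJB1 (0.15), FKBP4 (0.15) and HSP90B1 (0.13) with Cnidii Rhizoma and 0 members with the other two. Mean log2 differences from vehicle over the heat shock and ER lists were 0.0664 and 0.07 with Cnidii Rhizoma, 0.056 and 0.024 with Rehmanniae Radix Preparata, and 0.0319 and 0.0311 with Astragali Radix. At 100 and 20 µg/mL against vehicle, edgeR called 0 members with Cnidii Rhizoma (0.147% and 0.293% of all genes), Rehmanniae Radix Preparata (0.202% and 0.44%) and Astragali Radix (2.43% and 1.39%). Members at an unadjusted p under 0.05 numbered 2 and 0, 1 and 0, and 5 and 5. Over the 16356 genes tested the counts were 1078 and 1179, 1032 and 954, and 3017 and 2582. DESeq2 called 1 member with Astragali Radix at 100 µg/mL. Direct comparison of Cnidii Rhizoma with Rehmanniae Radix Preparata at 500 µg/mL gave 0 calls by edgeR (0.153% of all genes) and 0 by DESeq2. At an unadjusted p under 0.05 there were 3 members and 860 of the 16356 genes tested.

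The formulae differed from vehicle in both directions. With Sagunja-tang at 500 µg/mL, 7 members rose and 2 fell, where 11.6% of all genes rose and 8.28% fell (19.9% in either direction). With Samul-tang, 7 rose and 2 fell, where 10.1% rose and 8.04% fell (18.1% in either direction). These counts lie near the share of all genes. Both comparisons use the same vehicle libraries. HSPA1B (0.28 with Sagunja-tang and 0.29 with Samul-tang), HSPD1 (0.25 and 0.23), DNAJB1 (0.19 and 0.12), FKBP4 (0.18 and 0.14), SDF2L1 (0.71 and 0.59) and CRELD2 (0.32 and 0.32) rose in both, HSPA5 (0.16) rose with Sagunja-tang and HSPH1 (0.13) with Samul-tang. HSPB1, an ATP-independent small chaperone (-0.42 and -0.49), and ATF6, the membrane-bound sensor (-0.20 and -0.19), fell in both. For HSPA1A and HSPA1B, whose reads cannot be split with certainty, the summed level was 653, 566 and 564 CPM with Sagunja-tang and 584, 565 and 555 CPM with Samul-tang, above the 511 to 522 CPM of the vehicle libraries. Leaving out vehicle replicate 3 left 5 members called with Sagunja-tang and 2 with Samul-tang, and leaving out Samul-tang 500 µg/mL replicate 1 or 2 left 3 or 5.

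SDF2L1, an ER partner of the J-protein DNAJB11, showed the highest value. It was at 7.65, 6.63 and 6.02 CPM under vehicle, at 11.4, 10.1 and 12 CPM with Sagunja-tang and at 11.7, 9.30 and 9.86 CPM with Samul-tang, without overlap with vehicle. The same gene followed the library sets in the other extracts. Libraries with codes beginning with 5 or 6-1 held 6.2 to 9.12 CPM, those beginning with 6-2 or 6-3 held 7.35 to 10.7 CPM and those beginning with 7 held 7.83 to 12 CPM. HSPB1 was at 141, 160 and 181 CPM under vehicle and at 118 to 123 CPM with Sagunja-tang at 500 µg/mL. It stood at 123 to 181 CPM in the libraries beginning with 5, 144 to 162 CPM in the 6-1 libraries, 116 to 150 CPM in the 6-2 and 6-3 libraries and 103 to 142 CPM in those beginning with 7.

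All formula libraries belong to set 2 and all vehicle libraries to set 1, so that treatment and set cannot be told apart in these comparisons alone. The Cinnamomi Cortex and Astragali Radix libraries lie in both sets and allow a fit with library set as a term. In that fit, 2 members of each list were higher and 8 of each list lower in set 2, where 18% of all genes were higher and 16.2% lower. Among these members were SDF2L1 (0.46), CRELD2 (0.11), HSPB1 (-0.25), BAG3 (-0.23), HSPA8 (-0.17) and ATF6 (-0.11). With that term, 5 members were called for Sagunja-tang at 500 µg/mL against vehicle (DNAJB1, HSPA5, HSP90AA1, HSP90B1 and PDIA6, all higher) and 1 for Samul-tang (HSPH1). Shares of all genes called for the treatments under that term are not given here, so these counts cannot be set against them. SDF2L1, CRELD2, HSPB1 and ATF6 were then not called. At 100 and 20 µg/mL, 6 and 8 members were called with Sagunja-tang (16.3% and 18.1% of all genes) and 9 and 1 with Samul-tang (21.6% and 10.5%), and with the term 1, 0, 0 and 0. Without vehicle replicate 3, Sagunja-tang had 0 members called at either of these doses and Samul-tang 2 at 100 µg/mL. Between the formulae at 500 µg/mL, both in set 2, edgeR called 0 members (0.318% of all genes) and DESeq2 0. At an unadjusted p under 0.05 there were 1 member and 647 of the 16356 genes tested.

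**Figure D5:**
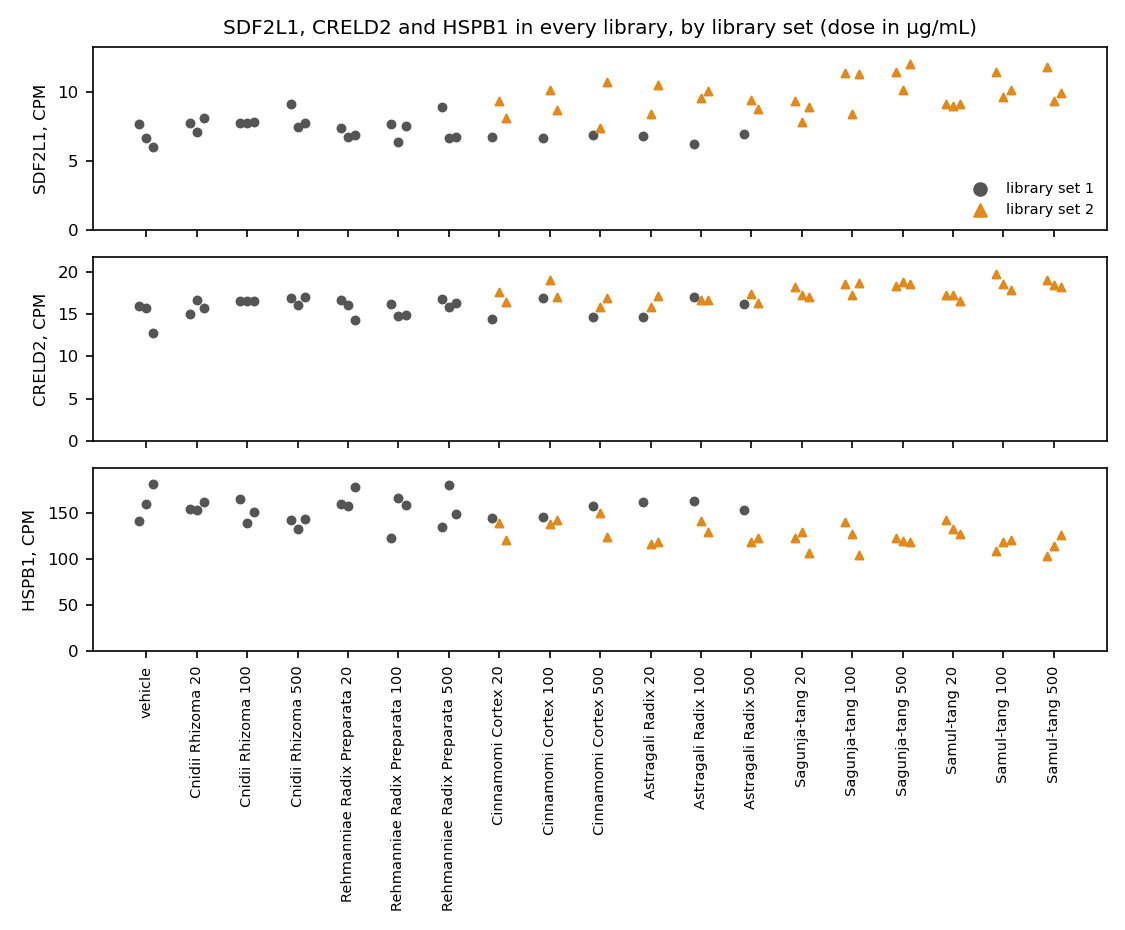
CPM of SDF2L1, CRELD2 and HSPB1 in the 57 libraries with replicates, by extract and dose; circles are library set 1 and triangles library set 2. SDF2L1 runs from 6.02 to 7.65 CPM in the vehicle libraries and from 7.83 to 12 CPM in those with codes beginning with 7.

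Further genes of the pathways were taken from lists of other heat shock genes (38 tested), other ER folding and quality control genes (38 tested) and regulators of both stress responses (11 tested). Between 500 and 20 µg/mL of Cinnamomi Cortex, 5 other heat shock genes rose, with PPID, an HSP90 cyclophilin (0.25), HSPA13 (0.23) and CCT4, a chaperonin subunit (0.18), the highest. Likewise 5 other ER genes rose, led by SEC11C of the signal peptidase (0.26), SSR1 of the translocon (0.20) and the prolyl isomerase PPIB (0.18), and 2 regulators, CREB3L2 (0.25) and ATF4 (0.19). Of these lists 0 genes fell, and 4.51% of all genes rose. Against vehicle at 500 µg/mL, 10 other heat shock genes rose, among them the ubiquitin ligase STUB1 (0.27), 4 other ER genes rose and UBE2J1 fell (-0.18), and ATF4 rose (0.18). With Sagunja-tang against vehicle, 12 other heat shock genes rose, led by LONP1 (0.30), STUB1 (0.28) and CCT3 (0.27), and 7 other ER genes rose while 3 fell, where 11.6% of all genes rose and 8.28% fell. Treatment and library set cannot be told apart there, and with the set term 4 other heat shock genes and 0 other ER genes were called.

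Paeoniae Radix, with 1 library per dose, allows values only. Its mean log2 difference from vehicle at 500 µg/mL was -0.0125 over the heat shock list and 0.0105 over the ER list. At that dose 10 members lay above all 3 vehicle libraries and 10 below, against 29.6% and 28.1% of all genes, with CRELD2 highest (0.32) and HSPB1 lowest (-0.46). At 20 µg/mL SDF2L1 was the highest (0.77) and BAG3 the lowest (-0.68).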

How the data were processed

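HT29 cells were treated for 24 h, and 57 libraries in 19 groups with 3 libraries each entered the fit. The deposited values are the authors' expected counts per Ensembl gene, 1 column per library; 213 further columns of the table were not used. Per the submitters' processing notes the tools were FastQC 0.11.9, Trim Galore 0.6.5, STAR 2.7.3a and RSEM 1.3.3 with GRCh38, with no role or order. Which annotation and strand option the counting used is not given in the sources used here. Per the labels' protocols, the library kit was directional, reads were 100 bases paired-end and the RNA integrity number was above 7.

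The members and lists were chosen with earlier results of these data known. Symbols were assigned to 56558 identifiers from a gene name table and to 497 from GENCODE 29, and 3620 had none. Expected counts were rounded (8.8% of values were not whole). Genes passing edgeR's filterByExpr at a minimum count of 10 were scaled by TMM and tested with edgeR 4.0.16 (quasi-likelihood, robust) in R 4.3.3, in 1 fit over all 19 groups with 30 comparisons. The common biological coefficient of variation was 0.057. All 40 members were eligible to be named, and genes of the further lists were named by the size of their difference among those called. On counts simulated for Cinnamomi Cortex 500 against 20 µg/mL over 16356 genes, the test recovered 32% of 50 genes changed 1.2-fold and 100% of 50 changed 1.5-fold, with 7 false calls, so many differences of the size seen here can be missed. Exon lengths, the combined length of all annotated exons of a gene, come from GENCODE 29 and promoter sequences from RefSeq. The chi-square between replicate libraries was 2.43 to 26.99 times that of sampling, so no pair looked like a library deposited more than once. Alternatives were DESeq2 1.42.0, its size factors within edgeR, no filter, a replicate block, a library set term and leaving out each library.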

Additional observations from a re-analysis of the deposited data

Results flagged for a closer look

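DNAJB9 was called by edgeR for a difference between Cinnamomi Cortex and Astragali Radix in its response to dose, as were 2.55% of all genes. Its Astragali Radix libraries at 20 and 500 µg/mL overlapped. The interaction, the log2 difference between 500 and 20 µg/mL with Cinnamomi Cortex minus that with Astragali Radix, was 0.48 (SE 0.13, edgeR adjusted p = 0.019). It was called by edgeR in 1 of 3 such interactions tested, in which edgeR called 0 of the other 39 members, while DESeq2 called DNAJB9, HSPA1A and CANX in this interaction. The value ran from 0.35 to 0.61 when single libraries were left out, and the call was lost without Cinnamomi Cortex 20 µg/mL replicate 1, Cinnamomi Cortex 500 µg/mL replicate 3, Astragali Radix 500 µg/mL replicate 3 or Astragali Radix 20 µg/mL replicate 3.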

How the results depend on the processing

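Direction was compared only for member differences called in the main fit, and none of these reversed under any alternative. Of 91 called member differences, 91 stayed called with DESeq2, 87 with its size factors, 62 with no filter on low counts, 51 with library set as a term and 91 with a replicate block, and 383 of 552 did so over the fits leaving out 1 library. Counts of called members by comparison and setting follow, where they moved by over 1.5 times. Shares of all genes under these settings are not given here, so the counts cannot be set against them. With no filter on low counts, against vehicle, Cnidii Rhizoma 500 and 20 µg/mL gave 2 and 1, Cinnamomi Cortex 100 and 20 µg/mL 2 and 1, Astragali Radix 500 and 20 µg/mL 1 each and Samul-tang 20 µg/mL 4. Between 500 and 20 µg/mL that setting gave 1 each for Rehmanniae Radix Preparata, Sagunja-tang and Samul-tang, and 3 for the Cinnamomi Cortex and Astragali Radix interaction. DESeq2 gave 3 for Cnidii Rhizoma 500, Cinnamomi Cortex 100 and Samul-tang 20 µg/mL and 1 for Astragali Radix 100 µg/mL against vehicle, 1 each for Rehmanniae Radix Preparata and Astragali Radix between doses, 14 for Cinnamomi Cortex against Astragali Radix and 3 for their interaction. The library set term gave 3 for Cnidii Rhizoma 500, 0 for Cinnamomi Cortex 100, 5, 1 and 0 for Sagunja-tang 500, 100 and 20, and 1, 0 and 0 for Samul-tang 500, 100 and 20 µg/mL against vehicle, and 1 for Cnidii Rhizoma between doses. The cause of these moves was not tested.

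In no comparison did the deviations of same-numbered libraries correlate at over 0.1 in all 3 pairs, so the numbers were not taken as pairs. A replicate block gave 4 for Cnidii Rhizoma 500, 2 for Cinnamomi Cortex 100, 2 each for Astragali Radix 500 and 100, 14 and 11 for Sagunja-tang 500 and 100 and 3 for Samul-tang 20 µg/mL against vehicle, 1 each for Cnidii Rhizoma and Astragali Radix between doses, and 3 for the interaction. A replicate block within sample code, chosen after seeing the data, gave 2, 1, 2 and 1 for Cnidii Rhizoma, Rehmanniae Radix Preparata, Astragali Radix and Sagunja-tang between doses, 1 for Cnidii Rhizoma against Rehmanniae Radix Preparata, 17 for Cinnamomi Cortex against Astragali Radix and 4 for their interaction.

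Leaving out 1 library at a time, counts ran from 14 to 21 for Cinnamomi Cortex between doses, 0 to 4 for Cinnamomi Cortex 100 against vehicle, 0 to 2 and 0 to 4 for Astragali Radix 100 and 20, 5 to 11, 0 to 11 and 0 to 9 for Sagunja-tang 500, 100 and 20, and 2 to 10, 2 to 11 and 0 to 4 for Samul-tang 500, 100 and 20 µg/mL, with 3 to 10 for Cinnamomi Cortex against Astragali Radix and 0 to 2 for their interaction. Depth did not limit detection of the members, the lowest count in any library being 120.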
